A study of Mus musculus with 6 samples.

Results

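The chromosome 15 stretch described here is a set of 6 genes, *Serhl*, *Rrp7a*, *Poldip3*, *Cyb5r3*, *Arfgap3* and *Scube1*, out of 49548 genes in the count table and 15789 tested genes. They were chosen as near neighbours on mouse chromosome 15 whose counts differed together between CharmeKO and WT native cardiac fibroblasts (CFs), so the difference between these groups chose them. Their group values and calls are therefore given as a description and are no test of the members. mRNA was sequenced from 3 WT and 3 CharmeKO samples of native CFs, all taken from hearts of C57BL/6 J mice at 5 weeks of age. CharmeKO mice carry a polyadenylation signal inserted in the locus of *Charme*, a long non-coding RNA of skeletal and cardiac muscle. Native CFs were obtained by enzymatic dissociation of the heart, red blood cell lysis and depletion of hematopoietic lineages, without a step that selects fibroblasts.

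The members have unrelated functions. *Serhl* encodes a serine hydrolase-like protein. *Rrp7a* encodes a factor of the small subunit processome, the nucleolar complex that processes ribosomal RNA. *Poldip3* encodes an RNA-binding protein that joins the exon junction complex and the mRNA export machinery to S6 kinase signaling. *Cyb5r3* encodes NADH-cytochrome b5 reductase, which passes electrons to cytochrome b5 for fatty acid desaturation and sterol synthesis and keeps the heme of globins and of soluble guanylate cyclase reduced. *Arfgap3* encodes a GTPase-activating protein of ARF1 that acts on the COPI coat of Golgi vesicles. *Scube1* encodes a secreted and cell surface glycoprotein with CUB and EGF-like domains, known from vascular endothelium and platelets. Genes that lie close together may share regulatory sequence or chromatin environment, although each has its own promoter.

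Of the 6 members, 5 were higher and 1 was lower in CharmeKO native CFs. *Serhl*, *Rrp7a*, *Poldip3*, *Cyb5r3* and *Arfgap3* stood at 1.89 to 2.29 times their WT mean, and *Scube1*, at the other end of the stretch, was 3.34 times higher in WT. The 9 other tested genes between them, *A4galt* and *Pacsin2* among them, did not pass the test in either direction.

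The promoter windows of the members are shown because these neighbours differed between the groups, 5 as higher and 1 as lower genes. They lie on both strands, 5 on the minus and 1, *Serhl*, on the plus strand. RefSeq windows of 250 bases before the gene start, on build GRCm38.p6, were found for 4 of the 6 members, and for *Poldip3* and *Cyb5r3* none was found. The window of *Serhl* is chr15:83099955-83100204 on the plus strand, that of *Rrp7a* is chr15:83122802-83123051, that of *Arfgap3* is chr15:83350248-83350497 and that of *Scube1* is chr15:83725040-83725289, the last 3 on the minus strand. They are written 5′ to 3′ in the direction of the gene, with matches to any of the searched motifs in capitals.
Serhl: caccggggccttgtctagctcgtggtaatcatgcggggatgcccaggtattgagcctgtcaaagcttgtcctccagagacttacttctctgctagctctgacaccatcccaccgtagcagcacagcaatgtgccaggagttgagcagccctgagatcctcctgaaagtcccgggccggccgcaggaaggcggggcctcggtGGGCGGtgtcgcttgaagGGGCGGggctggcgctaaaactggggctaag
Rrp7a: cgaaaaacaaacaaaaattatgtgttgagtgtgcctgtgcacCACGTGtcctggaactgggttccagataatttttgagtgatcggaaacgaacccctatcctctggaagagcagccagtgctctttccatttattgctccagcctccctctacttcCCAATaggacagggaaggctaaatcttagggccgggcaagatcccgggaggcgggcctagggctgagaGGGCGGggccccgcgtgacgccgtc
Arfgap3: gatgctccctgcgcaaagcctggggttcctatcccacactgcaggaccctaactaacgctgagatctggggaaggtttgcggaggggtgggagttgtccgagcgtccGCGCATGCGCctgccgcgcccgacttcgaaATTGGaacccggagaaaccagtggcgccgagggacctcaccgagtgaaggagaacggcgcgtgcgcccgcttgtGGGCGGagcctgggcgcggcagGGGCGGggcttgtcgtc
Scube1: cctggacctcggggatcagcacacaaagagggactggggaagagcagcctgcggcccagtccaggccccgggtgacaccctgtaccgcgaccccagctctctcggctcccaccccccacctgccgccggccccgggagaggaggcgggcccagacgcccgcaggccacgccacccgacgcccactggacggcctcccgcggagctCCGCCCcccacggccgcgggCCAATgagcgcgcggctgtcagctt

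The GC box GGGCGG was present on either strand in all 4 windows, and in 32.7% of the 32851 promoter windows of the same length. The CCAAT box was present in *Rrp7a*, *Arfgap3* and *Scube1*, against 33.8% of all windows. The palindromic NRF1 site, the longest run of capitals, was found once, in *Arfgap3* (0.782% of all windows), and the E-box CACGTG once, in *Rrp7a* (6.02%). TATAAA (12.4% of all windows), the ETS motif CCGGAAG (6.91%) and the AP-1 motif TGACTCA (4.46%) were in 0 of the 4. None of the matches overlapped another motif. GC content was 61.6% in *Serhl*, 54.8% in *Rrp7a*, 66.8% in *Arfgap3* and 75.2% in *Scube1*, against a median of 52.4%. The ratio of observed to expected CpG was between 0.552 in *Serhl* and 0.947 in *Arfgap3*, against a median of 0.374. No motif searched was shared by the 3 higher members shown and absent from *Scube1*.

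The libraries held 9595701 to 42101393 counts in WT and 23550718 to 31048606 in CharmeKO, and WT replicate 3 was the shallowest. The 6 libraries differed in *Xist*, which was over 100 CPM (counts scaled to a common library size) in WT replicate 1 and CharmeKO replicates 1 and 2, while *Ddx3y* was at 48.6 to 57.1 CPM in the other 3. The split was not complete. *Ddx3y* had 59 counts (2.06 CPM) in CharmeKO replicate 1, against 0 in WT replicate 1 and CharmeKO replicate 2, and *Xist* had 67 counts (2.55 CPM) in WT replicate 2. *Charme* itself had 26, 15 and 4 counts in WT replicates 1, 2 and 3 and 7, 0 and 0 counts in the CharmeKO libraries, and 0 counts leave room for up to 3, or 0.123 CPM, by counting error alone. The fibroblast genes summed to 35650 to 39612 CPM in WT and 31009 to 37994 CPM in CharmeKO, and *Gsn* gave most of this sum. Of the single fibroblast genes, *Dcn* and *Ly6a* were higher in CharmeKO without overlap, and the others overlapped. *Col1a1* had means of 4052 CPM in WT and 2378 CPM in CharmeKO, and *Col3a1* of 7458 and 4888 CPM. *Col1a1* did not pass the test (edgeR adjusted p = 0.189), but DESeq2 called it (adjusted p = 0.0102). The endothelial genes, led by *Fabp4*, summed to 6817 to 8127 and 7185 to 9157 CPM. The sums of mural genes (1549 to 1808 and 1608 to 1940 CPM, led by *Rgs5*), erythroid genes (26758 to 39184 and 24397 to 31724 CPM, led by *Hbb-bs*) and leukocyte genes (25.2 to 43.6 and 31.0 to 41.7 CPM, led by *Cd79a*) also overlapped between the groups. Of their single genes, *Cspg4*, *Hba-a1* and the scarce *Csf1r* were lower in CharmeKO without overlap, and the others overlapped. The summed level of the 6 cardiomyocyte genes did not overlap, at 169 to 218 CPM in WT and 249 to 372 CPM in CharmeKO, and 2 of them, *Myh6* and *Tnni3*, passed the test as higher, while *Actc1* and *Nppa* overlapped between the groups. The 3 mesothelial genes summed to 54.7 to 66.7 CPM in WT and 33.3 to 39.5 CPM in CharmeKO, and *Wt1* passed the test as lower. *Wt1* gave most of this sum, with means of 50.7 CPM in WT and 32.3 CPM in CharmeKO. The scarce genes *Msln* and *Upk3b* overlapped between the groups. The part of these 2 lists in the values of the stretch was not tested.

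Levels are given as normalized CPM, the counts scaled to a library size corrected by the TMM method, and differences as log2 fold changes of CharmeKO over WT from edgeR's quasi-likelihood fit, with the standard error (SE). In such bulk libraries, fewer cells of a type and less RNA per cell cannot be told apart.

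*Serhl*, the first gene of the stretch, was at 13.7, 15.8 and 11.9 CPM in WT replicates 1, 2 and 3 and at 22.8, 28.9 and 27.2 CPM in CharmeKO replicates 1, 2 and 3. The lowest CharmeKO library was thus 1.44 times the highest WT library, the narrowest gap among the members. Its means were 13.8 ± 1.92 CPM in WT and 26.3 ± 3.19 CPM in CharmeKO (SD, n = 3 each), a log2 fold change of 0.92 (SE 0.15).

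*Rrp7a*, which is transcribed toward *Serhl* from the other strand and overlaps it, was at 41.8, 39.2 and 37.0 CPM in the WT libraries and at 73.3, 87.9 and 94.7 CPM in the CharmeKO libraries. The lowest CharmeKO library was 1.76 times the highest WT library. The means were 39.3 ± 2.40 and 85.3 ± 10.9 CPM (SD, n = 3 each), a log2 fold change of 1.11 (SE 0.12). The counting kept the strands apart, and the antisense gene *Gm17206* within *Serhl* had 0 counts in every library.

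*Poldip3* was the steadiest member in WT, at 55.6, 59.2 and 55.2 CPM, with a coefficient of variation of 3.93%. In CharmeKO it was at 96.4, 106.3 and 118.1 CPM, and no library of the groups overlapped. The log2 fold change was 0.92 (SE 0.11), from 56.6 ± 2.22 to 107 ± 10.8 CPM (SD, n = 3 each).

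*Cyb5r3* was by far the most abundant member, at 232, 314 and 218 CPM in WT and at 563, 597 and 586 CPM in CharmeKO. The WT libraries were spread, with WT replicate 2 above the others (coefficient of variation 20.2%), whereas the CharmeKO libraries lay close together (2.97%). The means were 255 ± 51.4 and 582 ± 17.3 CPM (SD, n = 3 each), and the log2 fold change was 1.19 (SE 0.15). It rested on the highest counts of the stretch, 2032 to 17832 per library.

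*Arfgap3* was at 36.5, 35.5 and 41.3 CPM in WT and at 91.1, 80.6 and 87.2 CPM in CharmeKO. Its lowest CharmeKO library was 1.95 times its highest WT library, the widest gap among the 5 higher members. The means were 37.8 ± 3.09 and 86.3 ± 5.31 CPM (SD, n = 3 each), a log2 fold change of 1.20 (SE 0.11).

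*Scube1*, the last gene of the stretch, went the other way, from 25.1, 26.9 and 28.2 CPM in WT to 6.42, 9.89 and 7.73 CPM in CharmeKO. The lowest WT library was 2.54 times the highest CharmeKO library. The means were 26.7 ± 1.52 and 8.01 ± 1.75 CPM (SD, n = 3 each), a log2 fold change of −1.74 (SE 0.17), and the counts behind them ran from 184 to 1070. None of the 6 endothelial genes passed the test, which is near the share of 0.83% over all tested genes. Their log2 fold changes were 0.15 for *Pecam1*, −0.04 for *Cdh5*, 0.38 for *Kdr*, −0.17 for *Tie1*, 0.43 for *Fabp4* and 0.31 for *Emcn*. *Kdr*, *Fabp4* and *Emcn* had higher CharmeKO values in groups that did not overlap, as did 9.58% of all tested genes. The part of endothelial cells in the values of *Scube1* was not tested.

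**Figure D1:**
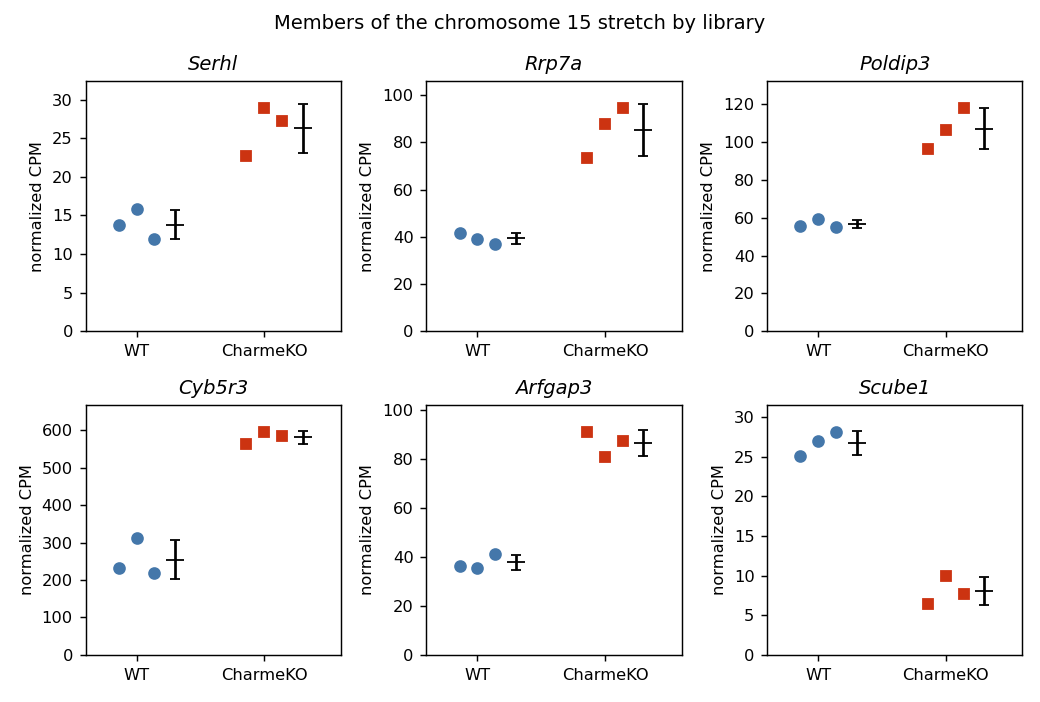
Normalized CPM of the 6 members (vertical axes, each from 0) in WT (blue circles) and CharmeKO (red squares), with the mean and SD of the 3 libraries beside each group. In all 6 genes the groups do not overlap, with CharmeKO above WT in 5 and below it in *Scube1*.

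All 6 members had an adjusted p-value under the threshold of 0.05 and groups that did not overlap. Over all 15789 tested genes, 0.83% passed that threshold (0.418% as higher and 0.412% as lower in CharmeKO), and the groups did not overlap in 18.2% (9.58% higher, 8.59% lower). DESeq2 called all 6 members and 2.5% of all genes. Since the contrast chose the members, nothing is read from these counts. With fewer libraries in the fit, *Serhl* was not called without WT replicate 1 (log2 fold change 0.91), WT replicate 3 (0.84), CharmeKO replicate 2 (0.85) or CharmeKO replicate 3 (0.89), which is likewise a description. With the split of the libraries by *Xist* as a term, which was added after seeing the data, the log2 fold changes of the members lay between 0.93 and 1.23 for the higher genes and at −1.73 for *Scube1*.

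The 5 higher members together made up 380, 463 and 364 CPM in the WT libraries and 847, 901 and 913 CPM in the CharmeKO libraries. The sum was 402 ± 53.4 CPM in WT and 887 ± 35.3 CPM in CharmeKO (SD, n = 3 each), 2.20 times as much, and *Cyb5r3* gave 60.0% to 67.7% of it in every library of WT and 64.2% to 66.5% in CharmeKO. The members were chosen as genes that change together, so the ratios among the higher members are given as a description. Ratios were taken within each library, and their group means were compared. The mean log2 ratio that moved least between the groups among them was that of *Cyb5r3* to *Arfgap3*. It averaged 2.74 ± 0.37 in WT and 2.75 ± 0.13 in CharmeKO (SD, n = 3 each). Next came *Serhl* to *Poldip3*, at −2.04 ± 0.15 and −2.03 ± 0.13. From library to library, *Rrp7a* to *Poldip3* had the narrowest range, 0.32, against 0.74 for *Cyb5r3* to *Arfgap3*. The ratio of *Poldip3* to *Cyb5r3* moved most among the 10 pairs of higher members, by −0.30, from −2.15 ± 0.22 to −2.45 ± 0.12. The ratios of *Poldip3* to *Arfgap3* and of *Serhl* to *Cyb5r3* each moved by −0.28. In contrast, the log2 ratio of *Arfgap3* to *Scube1* went from 0.50 ± 0.08 to 3.45 ± 0.40.

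Divided by the exonic length of each gene, the WT levels were 59.3 ± 12.0 CPM per kb for *Cyb5r3*, 9.97 ± 0.391 for *Poldip3*, 9.83 ± 0.806 for *Arfgap3*, 7.26 ± 0.444 for *Rrp7a*, 2.72 ± 0.155 for *Scube1* and 1.87 ± 0.260 for *Serhl* (SD, n = 3 each). *Poldip3* and *Arfgap3*, neighbours in this order, differed by less than their spread. In CharmeKO the order was *Cyb5r3* (135 ± 4.02 CPM per kb), *Arfgap3* (22.5 ± 1.38), *Poldip3* (18.8 ± 1.91), *Rrp7a* (15.8 ± 2.01), *Serhl* (3.56 ± 0.431) and *Scube1* (0.815 ± 0.178). *Scube1* thus moved from above *Serhl* to the lowest level of the stretch.

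In the gene order of GENCODE M21, 22 genes lie from *Serhl* to *Scube1*, of which 15 were tested. *Serhl*, *Rrp7a* and *Poldip3* were consecutive tested genes, *Rnu12* lay between *Poldip3* and *Cyb5r3*, *A4galt* between *Cyb5r3* and *Arfgap3*, and 7 tested genes between *Arfgap3* and *Scube1*. Over all tested genes, 0.83% passed the threshold of edgeR's test and 2.5% that of DESeq2. None of the 9 other genes passed in edgeR, 0 had an unadjusted p-value under 0.05, and DESeq2 also called 0. Their lowest adjusted p in edgeR was 0.435, that of *Rnu12*. They are described from the contrast that chose their neighbours, so the boundary between members and others is not independent of it.

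*A4galt*, the Gb3 synthase gene, averaged 18.2 ± 5.93 CPM over the WT libraries and 18.1 ± 6.30 CPM over the CharmeKO libraries (SD, n = 3 each), a log2 fold change of 0.02 (SE 0.27), although both of its tested neighbours were among the higher members. *Pacsin2*, which encodes a membrane-bending F-BAR protein and is the next protein-coding gene after *Arfgap3*, averaged 135 ± 2.40 and 129.5 ± 4.06 CPM (log2 fold change −0.06, SE 0.11). *Tspo*, which encodes an outer mitochondrial membrane protein, was at 98.7 ± 9.50 and 95.6 ± 5.63 CPM (−0.05, SE 0.11). *Ttll12*, a gene of the tubulin tyrosine ligase-like family and the tested gene next to *Scube1*, was at 22.9 ± 4.20 and 21.1 ± 2.52 CPM (−0.11, SE 0.16). *Ttll1*, which encodes a tubulin glutamylase subunit, had a log2 fold change of −0.02 (SE 0.20), *Mcat*, of mitochondrial fatty acid synthesis, 0.12 (SE 0.18), and the pro-apoptotic gene *Bik* 0.33 (SE 0.21). For *Bik* the CharmeKO libraries all lay above the WT libraries, at 6.22 ± 0.503 against 4.97 ± 0.450 CPM.

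The remaining 2 were scarce. *Rnu12*, the U12 small nuclear RNA gene of the minor spliceosome, whose RNA carries no poly(A) tail while the libraries were made from poly(A) RNA, had 7, 2 and 4 counts in WT and 28, 9 and 16 counts in CharmeKO, a log2 fold change of 1.71 with an SE of 0.85, and its groups overlapped in CPM. The long non-coding RNA gene *1700001L05Rik*, next to *Arfgap3*, had 51, 26 and 9 counts in WT and 12, 9 and 22 counts in CharmeKO (−1.06, SE 0.56), and its groups did not overlap in CPM. Among the genes of the stretch with a mean of at least 1 CPM, the smallest difference of a member was thus 0.92, in *Serhl* and *Poldip3*, and the largest of the 7 others was that of *Bik*.

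**Figure D2:**
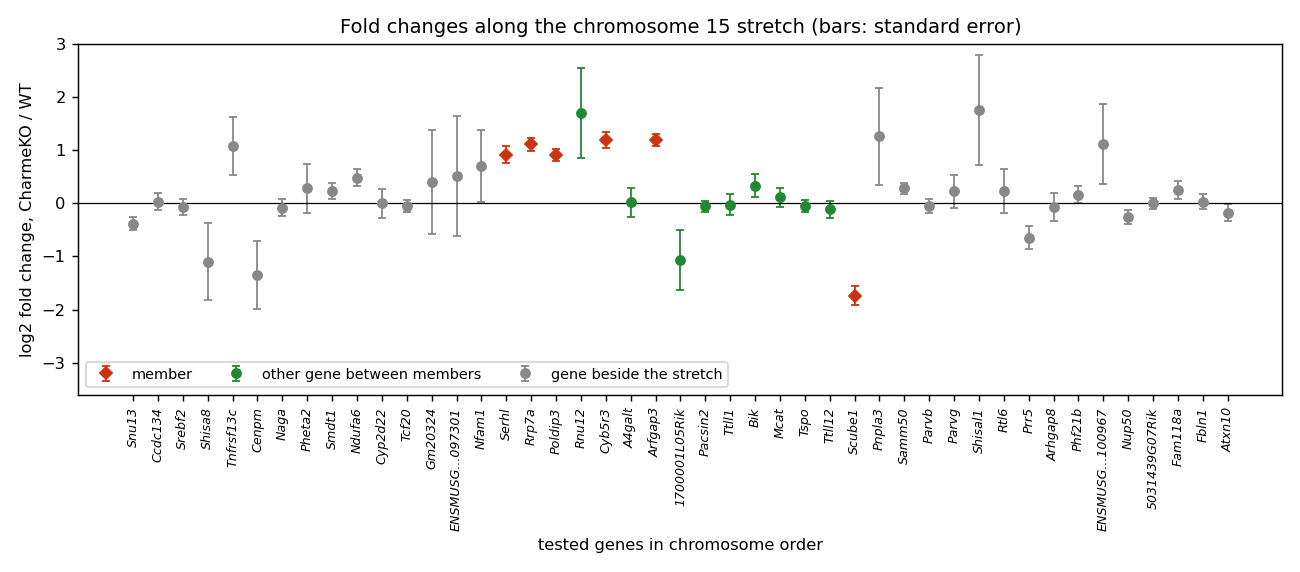
Log2 fold change of CharmeKO over WT (vertical axis) for the 45 tested genes of the stretch and its flanks in chromosome order (horizontal axis), with bars for 1 SE, members as red diamonds, other genes of the stretch in green and flanking genes in grey. The 5 higher members lie between 0.92 and 1.20 and *Scube1* at −1.74, while the 7 other genes of the stretch with a mean of at least 1 CPM lie between −0.11 and 0.33.

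**Figure D3:**
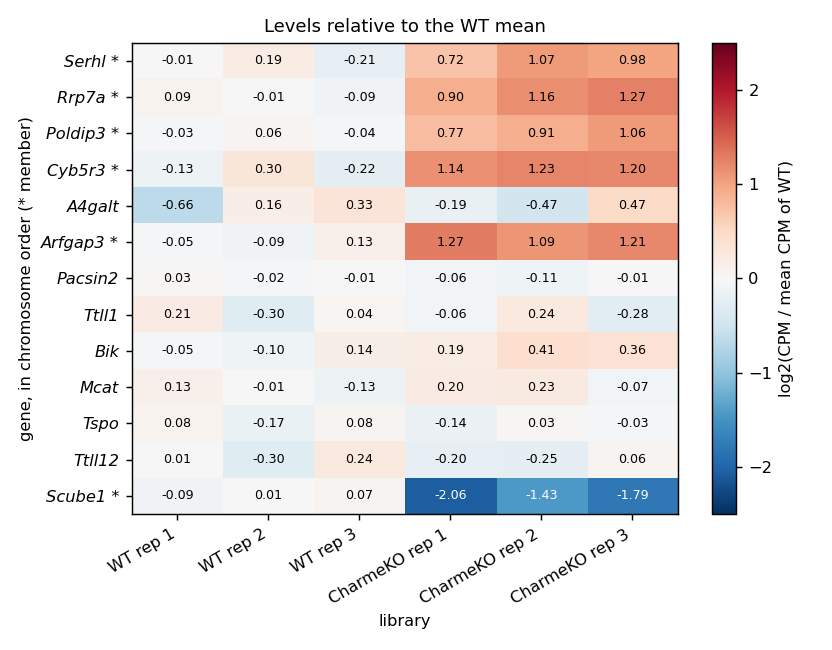
Log2 of CPM over the WT mean (color, printed in each cell) in the 6 libraries (columns) for the 13 tested genes of the stretch with a mean of at least 1 CPM (rows, in chromosome order, members starred). The 5 higher members are at 0.72 or more in each CharmeKO library and *Scube1* at −1.43 or less, whereas the other 7 genes lie between −0.66 and 0.47 in all libraries.

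Beside the stretch lay the 15 tested genes before *Serhl*, from *Snu13* to *Nfam1*, and the 15 after *Scube1*, from *Pnpla3* to *Atxn10*. They held 0 genes past the threshold in edgeR and 0 in DESeq2, against 0.83% and 2.5% of all tested genes. An unadjusted p-value under 0.05 was found for 4 of them. Among these is *Snu13*, which also counts in the list of small subunit processome genes below. The share of all genes at that level is not given, so this number is not read as a result. The median log2 fold change of the flanking genes was 0.10, against 0.01 over all tested genes, and the single values ran from −1.34 to 1.76. For the 23 flanking genes with a mean of at least 1 CPM they ran from −1.34 (*Cenpm*, SE 0.64) to 1.08 (*Tnfrsf13c*, SE 0.55), a range that reaches the size of the members' differences. Of the 593 tested genes of chromosome 15, 9 passed the threshold, or 1.52%, against 0.83% of all tested genes. The 6 members, chosen by this contrast, are among the 9, so the higher share is not read as a result about the chromosome. The other 3 were *Mb*, *Csf2rb2* and *Apobec3*. The median log2 fold change over the tested genes of chromosome 15 was 0.01. *Ndufa6* passed the threshold without WT replicate 2 (edgeR adjusted p = 0.00864) and *Prr5* without CharmeKO replicate 3 (0.0465), as higher and lower genes respectively.

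Genes known to work with the members were compared through 5 lists. Over all tested genes, 0.83% passed the threshold in edgeR and 2.5% in DESeq2. In lists of this size, 0 calls is near those shares. The share of all genes with an unadjusted p-value under 0.05 is not given, so counts at that level are not read as a result. Of the 43 tested genes of the small subunit processome, in which *Rrp7a* acts, 0 passed the threshold of edgeR's test, 4 had an unadjusted p-value under 0.05 and DESeq2 called 0. The median log2 fold change was 0.05, with 27 genes above and 16 below 0. Its most abundant gene, *Nop58*, averaged 91.8 ± 8.27 CPM over the WT libraries and 102.7 ± 20.6 CPM over the CharmeKO libraries (SD, n = 3 each). *Nol6* and *Rrp36*, which encode the factors that bind next to the RRP7A protein, had log2 fold changes of −0.15 (SE 0.12) and 0.12 (SE 0.17).

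Of the 26 tested genes of mRNA export and the exon junction complex, the partners of *Poldip3*, 0 passed in edgeR, 2 had an unadjusted p-value under 0.05 and DESeq2 called 0, with a median of 0.08. *Rps6kb1*, which encodes S6 kinase 1, was at 0.09 (SE 0.12) on the log2 fold change scale, and *Acin1*, the most abundant, at −0.06 (SE 0.11). The 2 genes under 0.05 were *Magoh* (0.51, SE 0.14) and *Thoc5* (0.33, SE 0.13), both with higher CharmeKO values in groups that did not overlap. In the whole list, 18 genes were above and 8 below 0.

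Of the 17 tested genes of the cytochrome b5 system, the partners of *Cyb5r3*, 0 passed in edgeR, 4 had an unadjusted p-value under 0.05 and DESeq2 called 0, with a median of 0.09. *Cyb5a*, the microsomal electron acceptor, averaged 88.2 ± 9.37 CPM over the WT libraries and 115 ± 7.28 CPM over the CharmeKO libraries (SD, n = 3 each) and did not overlap between the groups, with a log2 fold change of 0.38 (SE 0.12, edgeR adjusted p = 0.203). *Cyb5b*, its mitochondrial form, was at 75.3 ± 10.2 and 76.8 ± 7.88 CPM (0.03, SE 0.13). The related reductase genes *Cyb5r1* and *Cyb5r4* had log2 fold changes of 0.01 (SE 0.14) and 0.27 (SE 0.12), and *Scd1*, the stearoyl-CoA desaturase gene and the most abundant of the list, of −0.24 (SE 0.11).

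Of the 29 tested genes of ARF proteins and the COPI coat, the partners of *Arfgap3*, 0 passed in edgeR, 4 had an unadjusted p-value under 0.05 and DESeq2 called 0, with a median of −0.05. *Arfgap1* and *Arfgap2*, the other COPI-associated ARF GTPase-activating protein genes, had log2 fold changes of −0.28 (SE 0.12) and 0.18 (SE 0.10), *Arf1* of 0.05 (SE 0.12) and *Copa*, the most abundant, of −0.05 (SE 0.12).

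Of the 7 tested genes of the SCUBE family and BMP signaling, listed beside *Scube1*, 0 passed in edgeR, 2 had an unadjusted p-value under 0.05 and DESeq2 called 0, with a median of 0.02. *Scube2* averaged 2.05 ± 0.443 CPM over the WT and 1.05 ± 0.601 CPM over the CharmeKO libraries (−0.97, SE 0.51), and *Scube3* at 1.99 ± 0.650 and 3.59 ± 0.216 CPM (0.87, SE 0.33, edgeR adjusted p = 0.303). *Bmpr2*, the most abundant, had a log2 fold change of 0.20 (SE 0.14).

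**Figure D4:**
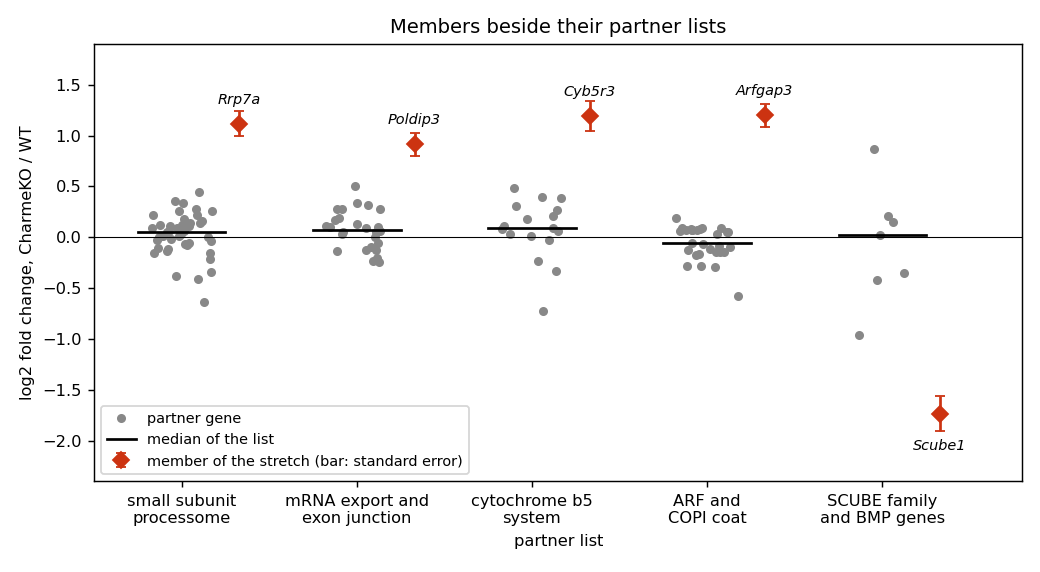
Log2 fold change of CharmeKO over WT (vertical axis) of the genes in the 5 partner lists (grey points, median as a black line) with the member each list belongs to (red diamond, bar for 1 SE). The single partner genes lie between −0.97 (*Scube2*) and 0.87 (*Scube3*), the list medians between −0.05 and 0.09, and the members, which were chosen for their difference, between 0.92 and 1.20, or at −1.74 for *Scube1*.

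The genes whose pattern over the 6 libraries was most like the mean standardised level of the members were *Camk2b* (Pearson r = 0.997), *Masp2* (0.993), *Tpt1* (0.990), *Psmb6* (0.985) and *Gm8210* (0.985), out of 13175 other tested genes with a mean of at least 1 CPM. None of them lies on chromosome 15. All of them were higher in CharmeKO, like the 5 higher members and unlike *Scube1*, which entered the mean with the opposite direction. The 6 libraries fall into the groups that chose the members, so this likeness is a description, and 100 genes had an r of at least 0.95. *Camk2b*, a calcium/calmodulin-dependent kinase gene, had 246, 186 and 51 counts in WT and 401, 384 and 522 counts in CharmeKO, or 6.11 ± 0.845 and 15.6 ± 1.58 CPM (SD, n = 3 each). *Tpt1*, a highly abundant growth-related gene, went only from 1909 ± 94.0 to 2387 ± 110 CPM (SD, n = 3 each) and did not pass the test (edgeR adjusted p = 0.317), which also held for *Psmb6*, a proteasome subunit gene (0.251). *Masp2*, a complement protease gene, had 1 to 3 counts per WT library and 50 to 74 per CharmeKO library. *Gm8210*, a predicted gene, had 5, 3 and 0 counts in WT and 489, 590 and 563 counts in CharmeKO, and whether its reads are shared with other copies was not tested.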

How the data were processed

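mRNA of native CFs from 3 WT and 3 CharmeKO samples was analysed. After trimming and filtering of reads, STAR was used by the authors for alignment and counting per gene, by strand, on an Ensembl annotation with *Charme* added. GRCm39 is the build named for the alignment, although the labels also list GRCh38. The deposited values are the raw counts from STAR, without normalization or a gene filter. The 15789 genes that reached 10 counts in 2 or more libraries were tested with edgeR 4.0.16 in R 4.3.3 (TMM, quasi-likelihood test, Benjamini-Hochberg adjustment over all genes, threshold 0.05). The SE is the fold change over the root of F. The test was checked on simulated data. DESeq2 1.42.0, other normalizations, filters, a replicate block and single libraries left out were alternatives. Gene order, overlaps and exonic lengths came from GENCODE M21 on GRCm38, another build than that named for the counts, so no gene coordinates are given. Promoters came from RefSeq on GRCm38.p6, trimmed to 250 bases before the start.

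The members and the lists were chosen with earlier results of these data known. Named genes were all members, all tested genes between them, genes past the threshold in the 15 tested genes on either side and in the partner lists, the most abundant gene of each list, and the 5 genes most like the members in log2(CPM + 1). Others, such as paralogs and binding partners, were named for their function, and a few for their values, after values were seen. Total counts, which set the precision, are given per group, and the limit for a count of 0 covers counting error only. The labels also list a growth medium, whereas the methods describe freshly isolated cells. The methods name hearts of 3 WT and CharmeKO mice, but the labels do not tie each sample to a mouse, so p-values measure only the spread between these samples, which may be partly technical. The result of 1 marker list is not reported here. Figures were drawn with matplotlib 3.10.9.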

Additional observations from a re-analysis of the deposited data

How the results depend on the processing

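The members were chosen on these libraries, so their values under the 13 alternatives are a description and no sign of stability. The log2 fold change was 0.84 to 1.02 for *Serhl* and −1.91 to −1.60 for *Scube1*, and *Serhl* was not called in 4 fits without 1 library. The other tested genes between *Serhl* and *Scube1* stayed at 0 calls in all 13. Over all genes, 131 calls (66 higher) became 394 (154 higher) with DESeq2, 699 (253) without a filter beyond 1 count in any library and 302 (115) with the replicate block, and they ranged from 61 (35) without CharmeKO replicate 1 to 349 (131) without WT replicate 2. The cause was not tested. Beside the stretch, 3 genes were called without the filter (*Ndufa6*, *Prr5* and *Tnfrsf13c*), 1 with the replicate block (*Prr5*) and 0 to 1 with a library left out. Without the filter, 1 partner of *Poldip3* (*Magoh*), 1 of *Cyb5r3* (*Gucy1a1*) and 1 of *Arfgap3* (*Kdelr3*) were called, and the replicate block called 1 of *Cyb5r3* and 1 of *Arfgap3*, the same genes. Deviations of same-numbered WT and CharmeKO libraries correlated at 0.216, 0.0535 and 0.161, and each library correlated best with its own number. The S codes in the labels alternate between WT and CharmeKO in replicate order, while the MB codes do not. The labels name no pairs, so the numbers were not taken as pairs. Whether same-numbered libraries were handled together was not tested. The depth of WT replicate 3, 9595701 counts, limits scarce genes such as *Rnu12*.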

Other observations

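Along the 15764 tested genes placed in the GENCODE M21 order, *Serhl*, *Rrp7a* and *Poldip3* formed 1 of 2 runs of at least 3 consecutive genes that passed the threshold in the same direction. The other run, of 5 genes on chromosome 1 from *Gm28438* to *Gm29216*, included the pseudogene *Atp6-ps* and was higher in CharmeKO, with log2 fold changes between 1.35 and 3.30. A further 7 runs held 2 genes each. They included the collagen IV pair *Col4a4* and *Col4a3* on chromosome 1, lower in CharmeKO, the heat shock genes *Hspa1b* and *Hspa1a* on chromosome 17, higher, and the zinc finger genes *Zfp985* and *Zfp979* on chromosome 4, higher. These runs were listed after their values were seen. *Serhl*, *Rrp7a* and *Poldip3* were chosen as neighbours that differ together in this contrast, so their run is a description and no sign of rarity.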
